A study of Arabidopsis thaliana with 48 samples.

Results

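Trehalose-phosphate synthases (TPS) make up a small gene family of Arabidopsis thaliana, and its 8 members TPS1 and TPS5 to TPS11 were followed here across leaves under and beside high light. The members were taken by their gene identifiers, AT1G78580 (TPS1), AT4G17770 (TPS5), AT1G68020 (TPS6), AT1G06410 (TPS7), AT1G70290 (TPS8), AT1G23870 (TPS9), AT1G60140 (TPS10) and AT2G18700 (TPS11), among the 32833 genes of the table, and all 8 had a mean of at least 10 normalised counts and were tested. Trehalose-6-phosphate is made from UDP-glucose and glucose-6-phosphate, is turned into trehalose by phosphatases (TPP), and acts in plants as a signal of sucrose supply that restrains the energy-sensing kinase SnRK1. TPS1, of class I, is the enzyme that makes most of it in leaves. The class II proteins TPS5 to TPS11 carry a synthase-like and a phosphatase-like domain, are mostly thought to act in regulation rather than synthesis, and include genes whose transcripts are known to follow the sugar status of the leaf, TPS5 being raised by sugar and TPS8 to TPS11 lowered by it.

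Leaf RNA was sequenced from 4-week-old soil-grown plants at 0, 2, 8 and 30 min. The leaves were local (under high light stress per the labels) or systemic (other leaves, labelled as untreated), and came from the knockout myb30, made to lack the R2R3-MYB transcription factor MYB30, and from Col-0 wild type (Col). The 16 groups held 3 libraries each, with 20 plants behind each repeat. Per the labels the plants grew at 21-24C with 10 h of light and 14 h of darkness, and no allele or line of the mutant is named. The values are normalised read counts, that is, reads per gene divided by 1 size factor per library. Differences are on the log2(value + 1) scale with their standard error, and a change was called at a Benjamini-Hochberg adjusted p under 0.05 in limma across all 19556 genes tested. Because each library is a pool of plants, a p-value measures the spread between these pools.

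The libraries held 70514715 to 89402096 reads in genes. MYB30 itself had 176 to 818 normalised counts in the 24 myb30 libraries (median 472) and 244 to 1039 in the 24 Col libraries (median 743). Over all leaves and times its reads thus overlapped between the genotypes. Within local leaves, every myb30 library lay below every Col library at 0, 2, 8 and 30 min. The same held in systemic leaves at 8 and 30 min, while at 0 and 2 min the libraries overlapped. All 8 genes that parted the genotypes outside systemic 0 min lay nearer the other genotype in the libraries labelled myb30 systemic 0 min replicate 3 and Col systemic 0 min replicate 3. The stress-response gene WRKY40 stood at 3317, 1897 and 496 in the libraries labelled myb30 systemic 0 min replicate 3, Col local 0 min replicate 3 and Col systemic 0 min replicate 1, against 33.6 to 60.9 in the 0 min libraries other than these 4. Results that use 0 min leaves are also given without these 4 libraries where a call changes. Leaving them out keeps only 1 library, replicate 2, in Col systemic 0 min, so changes from that group then rest on it alone. Without them 9 member calls were lost: TPS10 at 2 min in Col local leaves, TPS1 and TPS11 at 2 min, TPS1 and TPS8 at 8 min and TPS7 at 30 min in Col systemic leaves, TPS1 at 30 min in myb30 systemic leaves, the difference of changes between leaves of TPS6 in Col, and that between genotypes of TPS11. The 6 Col libraries titled 30 min carry a time tag of 0 min and were placed by their titles. The photosynthesis genes RBCS1A, LHCB1.1 and LHCA1 summed to at least 1970878 in every 30 min library, and the flower genes AP1 and AP3 to at most 16.2. Guard cell genes (MYB60 and FAMA, 2 of 2 lower at 30 min in local leaves of either genotype) summed to 816 to 975 in the 6 local 30 min libraries, 1590 to 1708 in the 6 systemic ones and 1698 to 2166 in the 12 at 0 min, and the epidermal gene PDF1 averaged 9.48 and 11.5 in myb30 and Col local leaves at 30 min, against 108 and 327 at 0 min, while ATML1, the other epidermal gene, was not called. The phloem gene SUC2 was called at 30 min in myb30 local leaves and in no other of the 4 comparisons of 30 with 0 min, with a change of -0.38 ± 0.10. The 2 root genes, 1 of them too low to test, varied widely between libraries. They summed to 34.4 to 634 in the local 30 min libraries, 55.3 to 172 in the systemic ones and 36.0 to 366 at 0 min. The part of these cell types in the results was not tested. In such bulk samples, fewer cells of a type and less RNA per cell cannot be told apart.

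At 0 min TPS7 had the highest level of the family. Divided by exon length, the level at 0 min over 12 libraries had a median of 2576 normalised counts per kb for TPS7, with a range of 2258 to 2735, above every other member in every library. TPS8 followed at 1549.6, then TPS5 at 1280.3 and TPS1 at 1269, whose ranges overlapped with one another. TPS6 at 642 and TPS11 at 582 overlapped as well, and TPS10 at 178 and TPS9 at 137 were the lowest. The exon length joins the exons of all annotated transcripts of a gene, with 5341 bases for TPS1 and 3349 for TPS8. The place of TPS1 depends on this length. Not divided by it, the group means at 0 min were 6445 to 7176 normalised counts for TPS1 and 4983 to 5248 for TPS8. The genes differ in build: TPS1 has up to 19 exons and a product of 942 residues, while the class II genes have 3 to 5 exons and products of 851 to 867 residues in the RefSeq annotation of TAIR10.1. TPS1, TPS5 and TPS6 each overlap a gene on the opposite strand. Whether reads were counted by strand is not given in the sources used here, so reads of these partners cannot be told apart from theirs.

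TPS8, TPS9, TPS10 and TPS11 had the largest changes of the 8 members at 30 min. They are described together because their values, once seen, moved together: over the 16 group means of log2 values, Pearson's r between any 2 of them was 0.934 to 0.962, a description with no test since all share the same libraries. All 4 code for class II proteins of 856 to 867 residues. Their start regions are shown, from 250 bases before to 50 after the annotated start, 5′ to 3′ on the gene's strand (RefSeq, TAIR10.1), with capitals marking matches to TATCCA, known from starvation-induced amylase promoters of rice, and to the I-box core GATAAG, known from light-regulated promoters, on either strand. They lie at chr1:26474784-26475083 (minus strand), chr1:8431929-8432228 (plus strand), chr1:22181691-22181990 (minus strand) and chr2:8108648-8108947 (plus strand).
TPS8: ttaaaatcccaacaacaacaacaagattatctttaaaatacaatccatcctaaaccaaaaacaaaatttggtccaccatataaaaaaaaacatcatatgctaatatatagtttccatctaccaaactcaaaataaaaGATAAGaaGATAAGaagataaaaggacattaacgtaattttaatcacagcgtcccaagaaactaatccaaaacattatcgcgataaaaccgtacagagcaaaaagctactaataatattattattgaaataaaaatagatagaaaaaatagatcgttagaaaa
TPS9: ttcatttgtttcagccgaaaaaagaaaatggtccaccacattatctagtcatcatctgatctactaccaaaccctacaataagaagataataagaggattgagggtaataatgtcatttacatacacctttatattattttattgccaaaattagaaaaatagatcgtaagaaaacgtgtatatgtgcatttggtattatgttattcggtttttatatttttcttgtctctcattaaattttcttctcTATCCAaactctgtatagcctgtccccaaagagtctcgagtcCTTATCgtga
TPS10: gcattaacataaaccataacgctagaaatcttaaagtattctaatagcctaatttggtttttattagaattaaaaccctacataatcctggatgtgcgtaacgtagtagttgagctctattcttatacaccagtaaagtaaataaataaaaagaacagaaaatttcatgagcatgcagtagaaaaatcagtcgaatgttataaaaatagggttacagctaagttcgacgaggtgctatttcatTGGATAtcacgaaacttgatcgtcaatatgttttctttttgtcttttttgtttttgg
TPS11: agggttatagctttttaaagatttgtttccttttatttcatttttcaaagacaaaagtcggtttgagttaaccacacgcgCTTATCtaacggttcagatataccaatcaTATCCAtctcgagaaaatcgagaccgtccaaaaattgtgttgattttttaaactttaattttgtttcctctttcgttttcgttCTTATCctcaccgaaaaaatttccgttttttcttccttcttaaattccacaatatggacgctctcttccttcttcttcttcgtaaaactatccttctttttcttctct
TATCCA was found in 4 of the 8 members (TPS6, TPS9, TPS10 and TPS11), beside 16.1% of the 27437 such windows of the genome, and GATAAG in 4 (TPS6, TPS8, TPS9 and TPS11), beside 14.6%. TPS8 has 2 GATAAG matches close together and TPS11 has 2 further apart. No matches overlapped each other. The G-box CACGTG occurred in TPS6 alone among the members (7.68% of all windows), and the evening element core AATATCT in none (11.5%). The windows of TPS1, TPS5 and TPS7 held no match. A match is a description of the letters only.

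After 30 min the same 4 genes had fallen in the local leaves. TPS8 had 761, 1246 and 921 normalised counts in myb30 local leaves at 30 min, against 5740.2, 5269.9 and 4724 at 0 min. In Col local leaves it had 1149.6, 1309 and 1416 at 30 min, against 4819, 5467 and 4664 at 0 min. Every 30 min library lay below every 0 min library of its genotype, and the log2 changes were -2.45 ± 0.15 (adjusted p = 5.44e-16) in myb30 and -1.95 ± 0.15 (adjusted p = 2.10e-13) in Col, or 5.47-fold and 3.86-fold lower. TPS11, also studied for its part in defence against aphids, had 354, 533 and 358 at 30 min against 2245, 1586 and 1376 at 0 min in myb30 local leaves. In Col local leaves it had 437, 399 and 542 at 30 min against 1745, 1759 and 1661 at 0 min. Again no 30 min library reached a 0 min one, and TPS11 changed by -2.06 ± 0.16 (adjusted p = 4.59e-13) in myb30 and -1.92 ± 0.16 (adjusted p = 2.08e-12) in Col.

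The low-expressed TPS9 moved the same way in local leaves. It had 129, 210.0 and 135 at 30 min against 516, 394 and 393 at 0 min in myb30, and 156, 165 and 174 against 409, 380.1 and 377 in Col. The ranges did not overlap in either genotype, and the changes were -1.48 ± 0.16 (adjusted p = 9.85e-10) in myb30 and -1.23 ± 0.16 (adjusted p = 3.94e-08) in Col. TPS10 showed the smallest fall of the 4: it had 497, 541 and 474 at 30 min against 914, 796 and 821 at 0 min in myb30 local leaves. In Col local leaves TPS10 had 501, 538 and 573 at 30 min against 795, 733 and 653 at 0 min. No libraries overlapped, with changes of -0.74 ± 0.09 (adjusted p = 5.73e-09) in myb30 and -0.43 ± 0.09 (adjusted p = 6.77e-05) in Col. Counting all 8 members, 7 fell in myb30 local leaves and 6 in Col local leaves at 30 min, and none rose. The background was wide, since 44.1% of all genes tested were called in myb30 local leaves (22.5% higher, 21.6% lower) and 53.7% in Col local leaves (27.2% higher, 26.5% lower).

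In the systemic leaves the 4 genes rose. TPS11 had 4424, 7133 and 5932 at 30 min against 2283, 1907 and 1846 at 0 min in myb30. In Col systemic leaves TPS11 had 9133, 8837 and 10505 at 30 min against 1521, 1630.5 and 1684 at 0 min, the highest group mean of this gene in the study. The groups did not overlap, and TPS11 rose by 1.51 ± 0.16 (adjusted p = 8.19e-07) in myb30 and 2.55 ± 0.16 (adjusted p = 1.83e-13) in Col, or 2.85-fold and 5.87-fold. TPS8 had 6757, 11151 and 8088 at 30 min against 5364, 5264 and 5115 at 0 min in myb30. In Col systemic leaves it had 13454, 12619.5 and 13056 at 30 min against 4289, 5099 and 5726 at 0 min. No libraries overlapped, and TPS8 rose by 0.69 ± 0.15 (adjusted p = 0.00245) in myb30 and 1.38 ± 0.15 (adjusted p = 1.52e-08) in Col. The 3 myb30 libraries at 30 min spread widely, with replicate 2 highest for TPS8 and TPS11, and also for TPS9 and TPS10 below.

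TPS9 had 526, 661 and 554 at 30 min against 406, 332 and 428 at 0 min in myb30 systemic leaves, and 983, 834 and 856 against 410.3, 430.0 and 425 in Col. Neither pair of groups overlapped, and TPS9 rose by 0.58 ± 0.16 (adjusted p = 0.0140) in myb30 and 1.07 ± 0.16 (adjusted p = 2.55e-06) in Col. TPS10 had 964, 1201 and 1037 at 30 min against 772, 784 and 768 at 0 min in myb30, and 1314, 1359 and 1421 against 696, 675 and 844 in Col. It rose without overlap, by 0.46 ± 0.09 (adjusted p = 0.000636) in myb30 and 0.89 ± 0.09 (adjusted p = 1.81e-09) in Col. Over the 8 members at 30 min, 4 rose and 1 fell in myb30 systemic leaves, where 11.6% of all genes were called (5.87% higher, 5.75% lower). In Col systemic leaves 5 rose and 2 fell, where 34.7% of all genes were called (17.7% higher, 17% lower). The call of TPS9 in myb30 was lost without myb30 systemic 0 min replicate 2, at 0.47 (adjusted p = 0.0974), and without myb30 systemic 30 min replicate 2, at 0.48 (adjusted p = 0.0919). Omitting replicate 2 of every group lost the myb30 calls of TPS8, at 0.50 (adjusted p = 0.105), TPS9, at 0.37 (adjusted p = 0.227), and TPS10, at 0.38 (adjusted p = 0.0855). TPS9 was also lost without replicate 3 of every group, at 0.68 (adjusted p = 0.0560). With the compared groups fitted alone, limma's adjusted p in myb30 was 0.0708 for TPS8, 0.0664 for TPS9 and 0.0502 for TPS10, no longer calls. Without the 4 doubted 0 min libraries the changes in myb30 were 0.67 for TPS8, 0.65 for TPS9, 0.45 for TPS10 and 1.46 for TPS11. The 4 in myb30 were still called. In Col the changes were 1.35, 1.05, 1.01 and 2.54 for the same genes, against the 1 library then left at 0 min (replicate 2).

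**Figure D1:**
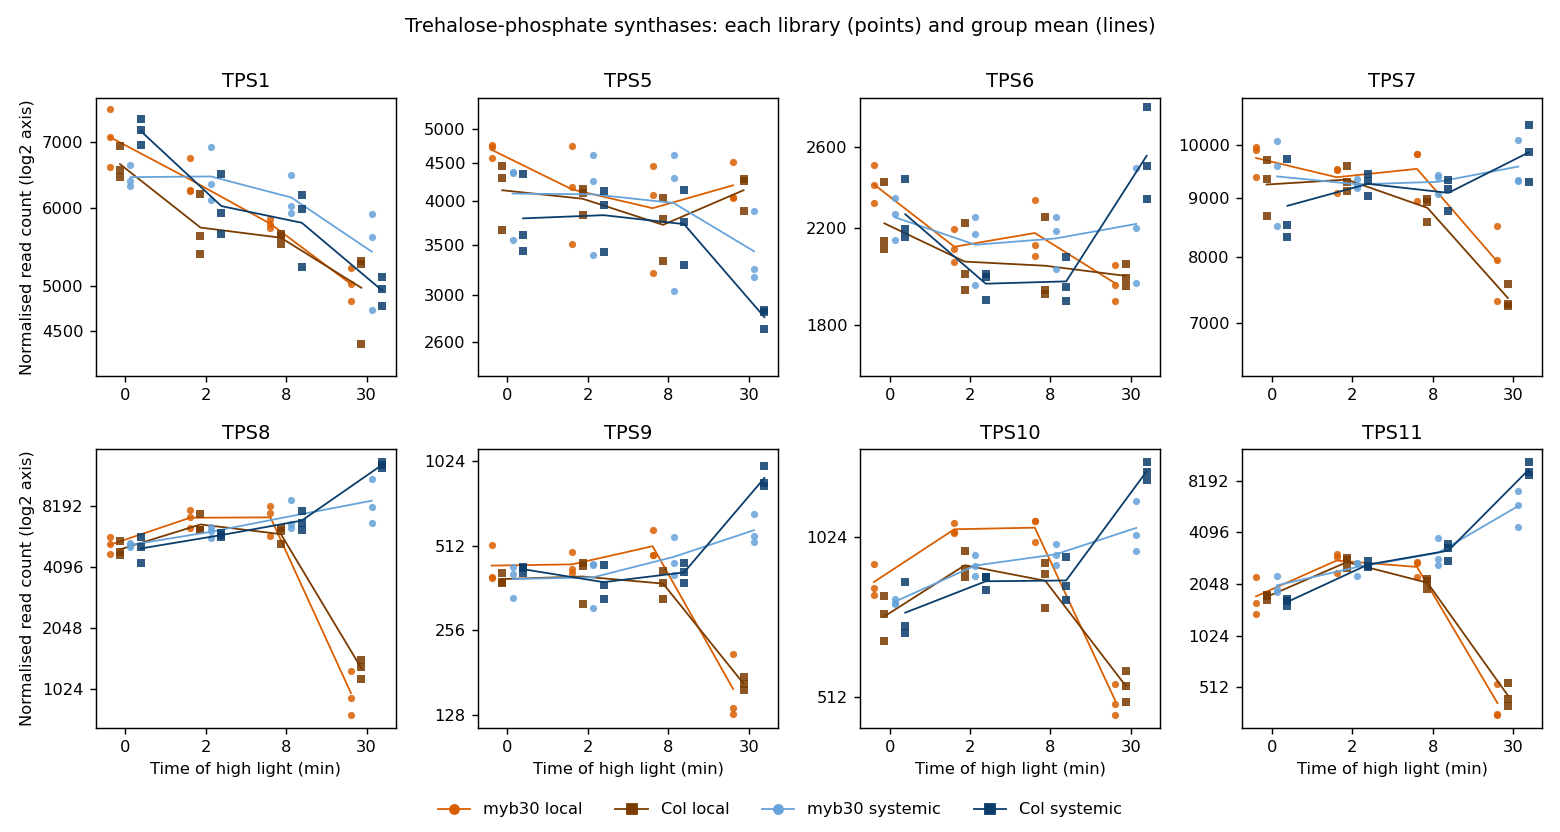
Normalised read count (log2 axis, scaled per gene) of each member against time of high light; points are single libraries, lines join group means, colours give leaf and genotype. TPS8 to TPS11 part at 30 min, with systemic libraries above and local libraries below all 0 min libraries of their genotype, whereas TPS1 declines in both leaves.

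**Figure D2:**
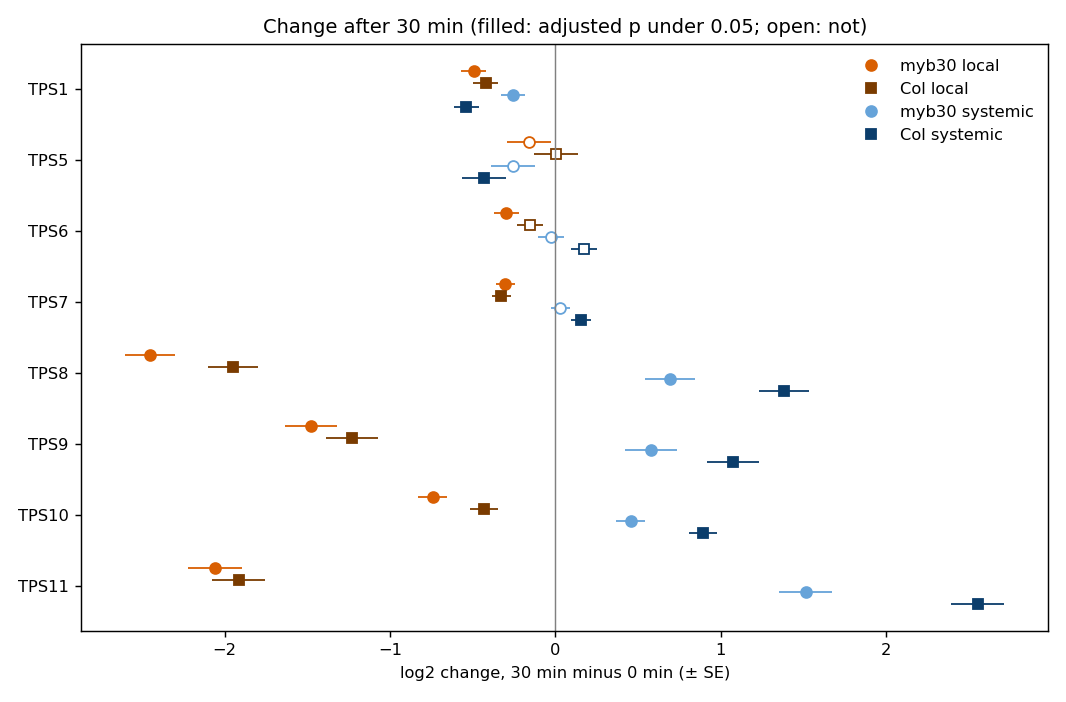
Change of each member at 30 min on the log2 scale with its standard error, by leaf and genotype; filled symbols passed the test. TPS8, TPS9, TPS10 and TPS11 lie below 0 in local leaves (down to -2.45 for TPS8 in myb30) and above 0 in systemic leaves (up to 2.55 for TPS11 in Col), and TPS1 lies below 0 in all 4.

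The opposite course of the 2 leaves was tested as a difference of changes (local change minus systemic change at 30 min). For TPS11 it was -3.57 ± 0.23 (adjusted p = 5.81e-15) in myb30 and -4.47 ± 0.23 (adjusted p = 4.95e-18) in Col, and for TPS8 -3.14 ± 0.21 (adjusted p = 2.77e-14) in myb30 and -3.33 ± 0.21 (adjusted p = 2.64e-15) in Col. TPS9 and TPS10 gave -2.06 ± 0.22 and -1.20 ± 0.12 in myb30 and -2.31 ± 0.22 and -1.32 ± 0.12 in Col, each with an adjusted p of at most 3.74e-09. TPS7 also differed between leaves, at -0.33 ± 0.08 (adjusted p = 0.00260) in myb30 and -0.48 ± 0.08 (adjusted p = 1.40e-05) in Col. TPS6 did so in Col at -0.33 ± 0.11 (adjusted p = 0.0171), a call lost without Col local 0 min replicate 2, at -0.26 (adjusted p = 0.0688), and without Col systemic 30 min replicate 3, at -0.25 (adjusted p = 0.0803). With the compared groups alone, TPS7 in myb30 was at -0.33 (adjusted p = 0.0518) and TPS6 in Col at -0.33 (adjusted p = 0.0510). In all, 5 members were called in myb30 and 6 in Col, where 22.7% and 36.8% of all genes were called. At 8 min the leaves differed in Col for TPS11, at -0.62 ± 0.16 (adjusted p = 0.00983), where 10.4% of all genes were called (4.15% for the difference of changes), a call lost without Col local 8 min replicate 1 (-0.56) or Col systemic 8 min replicate 2 (-0.55). No other member difference between the leaves was called by limma at 0, 2 or 8 min, with 0% in both genotypes, 0.0409% in myb30 and 0.133% in Col, and 3.91% in myb30 of all genes called (0%, 0.0409% and 1.27% for the changes at 2 min in myb30, 2 min in Col and 8 min in myb30). In the comparisons without any call, 1 of 40 differences and 2 of 32 differences of changes had an unadjusted p under 0.05, edgeR called 0 and DESeq2 1. Set directly against each other at 30 min, local leaves held less TPS11 than systemic leaves, with differences of -3.81 ± 0.16 in myb30 and -4.37 ± 0.16 in Col, and less TPS8, with -3.15 ± 0.15 in myb30 and -3.34 ± 0.15 in Col, among 5 members called in myb30 and 7 in Col (background 42% and 50.4%). TPS5 was the exception in Col, higher in local than in systemic leaves by 0.56 ± 0.13 (adjusted p = 0.000619), but at 0.26 (adjusted p = 0.0852) with every library scaled to the same total.

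**Figure D3:**
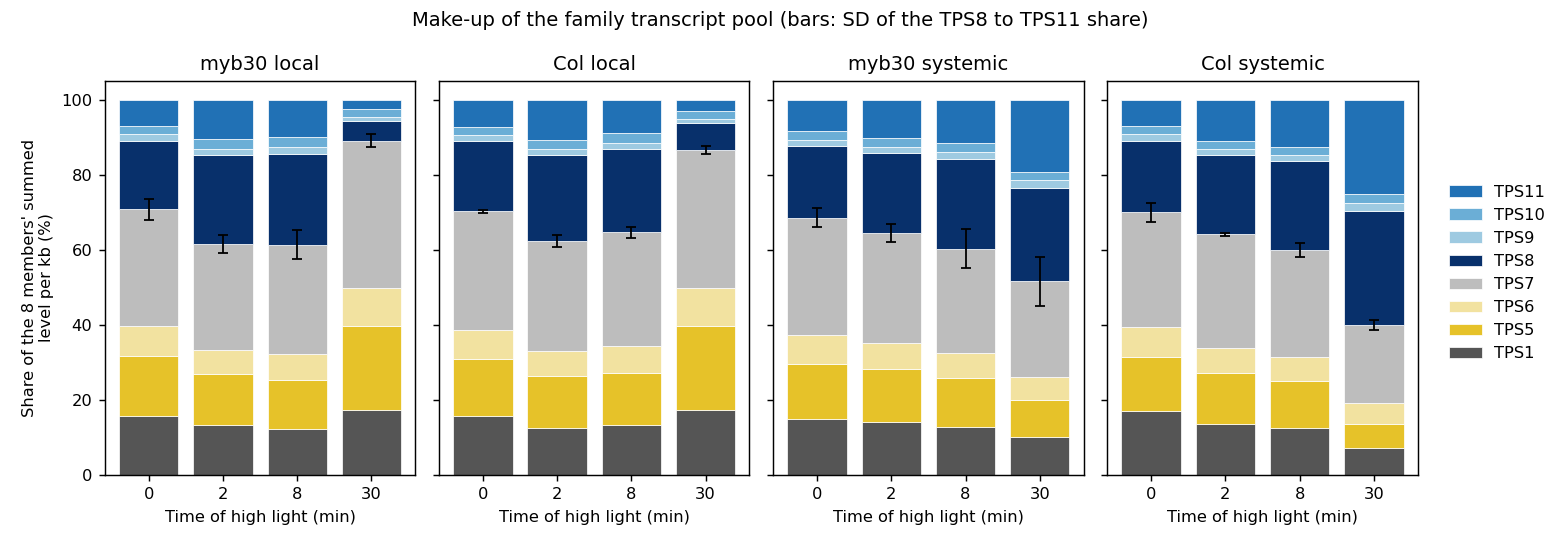
Mean share of each member in the family's summed level per kb (stacked bars, in percent) against time of high light, 1 panel per leaf and genotype; black error bars are the SD over 3 libraries of the joint TPS8 to TPS11 share (blue). The blue share shrinks to 10.9% and 13.3% in myb30 and Col local leaves at 30 min and grows to 48.4% and 60.0% in the systemic leaves.

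The transcript pool of the family changed in size and make-up with these genes. The summed level per kb of the 8 members was 8519 ± 309.8, 9033 ± 429.6, 8864 ± 379 and 5475 ± 274 at 0, 2, 8 and 30 min in myb30 local leaves (SD, n = 3 each). It was 7962 ± 437, 8617 ± 385, 7904 ± 418 and 5425 ± 129 in Col local leaves. Systemic leaves ended higher, at 10252 ± 1013 at 30 min against 8149.8 ± 276 at 0 min in myb30 and 12872 ± 319.9 against 7861 ± 506 in Col. The local sums thus ended lower than they began and the systemic sums higher, and the share of TPS8 to TPS11 moved in the same sense. These 4 genes made up 29.2% ± 2.90, 38.4% ± 2.34, 38.6% ± 3.90 and 10.9% ± 1.79 of that sum over time in myb30 local leaves. In Col local leaves the shares were 29.8% ± 0.48, 37.7% ± 1.65, 35.4% ± 1.39 and 13.3% ± 1.07. In myb30 systemic leaves they were 31.4% ± 2.49, 35.5% ± 2.44, 39.7% ± 5.29 and 48.4% ± 6.57. In Col systemic leaves they were 30.0% ± 2.57, 35.9% ± 0.49, 40.1% ± 1.78 and 60.0% ± 1.40. These sums and shares carry no test and depend on the exon lengths used. Ordering the 16 group means of TPS11 from high to low, Col systemic 30 min (9491 ± 890.0) and myb30 systemic 30 min (5829.6 ± 1357) stood apart from each other and from the rest, and both local 30 min groups were lowest and overlapped; of 15 neighbouring pairs, 11 overlapped. For TPS8, 12 of 15 neighbouring pairs overlapped, with Col systemic 30 min alone at the top and both local 30 min groups alone at the bottom.

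In local leaves TPS10 and TPS11 rose before they fell. TPS11 had 2951, 3076 and 2383 at 2 min against 2245, 1586 and 1376 at 0 min in myb30 local leaves, and 2525, 2886 and 2831 against 1745, 1759 and 1661 in Col. All 2 min libraries lay above the 0 min ones, and TPS11 rose by 0.71 ± 0.16 (adjusted p = 0.0139) in myb30 and 0.67 ± 0.16 (adjusted p = 0.00769) in Col. TPS10 rose at 2 min by 0.33 ± 0.09 (adjusted p = 0.0359) in myb30 and 0.32 ± 0.09 (adjusted p = 0.0151) in Col, without overlap, and TPS8, with 0.44 ± 0.15 and 0.41 ± 0.15, did not pass. These were the 2 members called at 2 min in each genotype, where 1.66% of all genes were called in myb30 and 10.7% in Col. At 8 min the values of TPS11 in local leaves were 0.59 ± 0.16 above 0 min in myb30, a call, and 0.27 ± 0.16 above in Col, not a call. TPS8 and TPS10 were called at 8 min in myb30 (0.44 ± 0.15 and 0.34 ± 0.09) and not in Col (0.25 ± 0.15 and 0.22 ± 0.09), with a background of 18.7% in myb30 and 26% in Col. The genotype-by-time test of limma called no member at 2 or 8 min in local leaves (0 of 8 at each time at an unadjusted p under 0.05, and 0 by edgeR and DESeq2), nor any of all genes tested.

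Most of these early calls rest on few libraries, and those of TPS8 at 8 min and TPS10 at 2 min in myb30 also rest on the scaling. The TPS8 call at 8 min in myb30 was lost with libraries scaled to the same total, at 0.42 (adjusted p = 0.0603), with quantile normalization, at 0.41 (adjusted p = 0.0533), and with the compared groups fitted alone, at 0.44 (adjusted p = 0.0828). The TPS10 call at 2 min in myb30 was lost with quantile normalization, at 0.30 (adjusted p = 0.0788). With the compared groups alone, TPS10 at 2 min in either genotype and TPS11 at 2 and 8 min in myb30 were not called either. In myb30 local leaves at 2 min, TPS10 was lost in 5 of 6 single omissions (myb30 local 0 min replicates 2 and 3 and each 2 min library, 0.29 to 0.34) and TPS11 in 4 of 6 (myb30 local 0 min replicates 2 and 3 and myb30 local 2 min replicates 1 and 2, 0.56 to 0.67). At 8 min in myb30, TPS8 was lost without myb30 local 0 min replicate 2 or 3 or myb30 local 8 min replicate 1 or 2 (0.34 to 0.45), and TPS11 without myb30 local 0 min replicate 3, at 0.44 (adjusted p = 0.104). Leaving out that same replicate brought the calls over time in myb30 local leaves to 8 of 24, against 13 of 24 with it. In Col local leaves at 2 min, TPS11 was not called without Col local 2 min replicate 3, at 0.65 (adjusted p = 0.0589), and TPS10 was not called without Col local 0 min replicate 3, Col local 2 min replicate 2 or Col local 2 min replicate 3, at 0.25, 0.28 and 0.33.

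In systemic leaves TPS11 was higher at 2 and 8 min than at 0 min in every library. In myb30 it had 2283, 1907 and 1846 at 0 min, 2716, 2712 and 2292 at 2 min and 3817, 2638 and 2867 at 8 min. The changes of 0.36 ± 0.16 (adjusted p = 0.998) at 2 min and 0.61 ± 0.16 (adjusted p = 0.0550) at 8 min did not pass. In Col it had 1521, 1630.5 and 1684 at 0 min, 2608, 2585 and 2769.8 at 2 min and 2797, 3491 and 3323 at 8 min, before the 30 min values given above. Each Col time lay above the one before without overlap, and the changes from 0 min were 0.72 ± 0.16 (adjusted p = 0.00428) at 2 min and 0.99 ± 0.16 (adjusted p = 9.07e-05) at 8 min. TPS8 rose at 8 min in Col by 0.46 ± 0.15 (adjusted p = 0.0254), a call lost without Col systemic 0 min replicate 1, Col systemic 8 min replicate 2 or Col systemic 8 min replicate 3, at 0.35, 0.38 and 0.48, or with the compared groups alone, at 0.46 (adjusted p = 0.0531). In myb30 systemic leaves limma called no member at 2 or 8 min, where 0% and 0.88% of all genes were called; of the 16 values 5 had an unadjusted p under 0.05, edgeR called 0 and DESeq2 1. In Col systemic leaves 2 members were called at 2 min and 3 at 8 min, against 11.8% and 22.4% of all genes.

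TPS1, the main synthase, fell slowly in both leaves. In myb30 local leaves it had 6606, 7086 and 7552 at 0 min, 5771, 5848 and 5717 at 8 min and 5025, 5216 and 4819 at 30 min. In Col local leaves it had 6925, 6455 and 6554 at 0 min, 5622, 5642 and 5517 at 8 min and 5258, 4366 and 5304 at 30 min. The later libraries lay below the 0 min ones, and at 30 min TPS1 was lower, with changes of -0.49 ± 0.07 (adjusted p = 8.55e-07) in myb30 and -0.42 ± 0.07 (adjusted p = 9.58e-06) in Col. In systemic leaves at 30 min it had 5914, 4719.8 and 5609 against 6383, 6320.4 and 6632 at 0 min in myb30, and 5098, 4965 and 4768 against 6954, 7199.8 and 7376 in Col. These did not overlap either, with changes of -0.26 ± 0.07 (adjusted p = 0.0183) in myb30 and -0.54 ± 0.07 (adjusted p = 7.42e-07) in Col. The myb30 systemic call was lost without myb30 systemic 0 min replicate 3, at -0.24 (adjusted p = 0.0776), and without myb30 systemic 30 min replicate 2, at -0.16 (adjusted p = 0.207). With the compared groups alone it was not called either. Earlier falls were called at 8 min in myb30 local (-0.29 ± 0.07), Col local (-0.25 ± 0.07) and Col systemic leaves (-0.31 ± 0.07), and at 2 min in Col systemic leaves (-0.25 ± 0.07). The first was lost without myb30 local 0 min replicate 3, at -0.24 with an adjusted p just above the threshold, the second without Col local 0 min replicate 1, at -0.22 (adjusted p = 0.0507), and the 2 min one without Col systemic 0 min replicate 3, Col systemic 2 min replicate 2 or Col systemic 2 min replicate 3, at -0.23, -0.21 and -0.25. Both Col systemic falls were lost with the compared groups alone, with adjusted p of 0.0551 at 8 min and 0.119 at 2 min in limma. TPS1 had no neighbouring pair of group means that stood apart (15 of 15 overlapped), and the difference of its change between leaves at 30 min did not pass, at -0.24 ± 0.10 (adjusted p = 0.102) in myb30 and 0.12 ± 0.10 (adjusted p = 0.413) in Col.

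TPS5, whose transcript is known to be raised by sugar, had a course of its own. At 30 min it had 3246, 3169.6 and 3877 against 3554, 4375 and 4360.5 at 0 min in myb30 systemic leaves, and 2699, 2863 and 2845 against 3432, 4353 and 3602 in Col. Only the Col groups were clear of each other, and TPS5 changed by -0.26 ± 0.13 (adjusted p = 0.244) in myb30, which did not pass, and by -0.43 ± 0.13 (adjusted p = 0.0116) in Col, a fall. The Col call was lost without Col systemic 0 min replicate 2, at -0.33 (adjusted p = 0.0843). In local leaves TPS5 had 4053, 4043 and 4510.0 at 30 min against 4564, 4763 and 4729 at 0 min in myb30, and 3881, 4251 and 4284 against 4297, 4454 and 3664 in Col. The change was -0.16 ± 0.13 (adjusted p = 0.355) in myb30 and 0.00 ± 0.13 (adjusted p = 0.984) in Col, neither a call, although the myb30 groups did not overlap. Scaling all libraries to the same total moved the median of all genes by -0.16 in myb30 and -0.34 in Col local leaves at 30 min, and TPS5 then stood at -0.32 (adjusted p = 0.0409) and -0.33 (adjusted p = 0.0251), having moved about as far as the median gene. Over the group means, its r with TPS8 to TPS11 was -0.674 to -0.519.

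TPS7, the most abundant member per length and a known target of phosphorylation and 14-3-3 binding, moved little but in the direction of TPS8 to TPS11 (r of 0.849 to 0.904 with them). In local leaves it had 7940.3, 8498 and 7315 at 30 min against 9959, 9906 and 9379.5 at 0 min in myb30, and 7573, 7275 and 7240.4 against 9344, 9708 and 8678 in Col. No libraries overlapped, and TPS7 fell, with changes of -0.30 ± 0.06 (adjusted p = 6.42e-05) in myb30 and -0.33 ± 0.06 (adjusted p = 1.56e-05) in Col. In systemic leaves the groups overlapped, with changes of 0.03 ± 0.06 (adjusted p = 0.816) in myb30 and 0.16 ± 0.06 (adjusted p = 0.0366) in Col. That Col call was lost without any 1 of Col systemic 0 min replicate 1, Col systemic 0 min replicate 3, Col systemic 30 min replicate 1 and Col systemic 30 min replicate 2, at 0.13, 0.11, 0.12 and 0.16, and with the compared groups alone, at 0.16 (adjusted p = 0.231), and the value was 0.02 without the 4 doubted 0 min libraries. TPS6, known for its part in cell shape and trichome branching, had 2160.3, 2434 and 2198 at 0 min, 1895, 1987 and 2000.4 at 2 min, 1892, 2072 and 1946 at 8 min and 2337, 2503 and 2825 at 30 min in Col systemic leaves. Its 2 and 8 min libraries lay below those at 0 min, but the changes of -0.21 (adjusted p = 0.0756) and -0.20 (adjusted p = 0.0587) did not pass. The 30 min libraries overlapped those at 0 min, and the 30 min change of 0.17 ± 0.08 (adjusted p = 0.0817) did not pass either. Same-numbered libraries deviated together in that comparison, and with the replicate number as a block the change was 0.17 ± 0.06 (adjusted p = 0.0161). In local leaves TPS6 changed by -0.30 ± 0.08 (adjusted p = 0.00194) in myb30, a call, and by -0.15 ± 0.08 (adjusted p = 0.0904) in Col, not a call.

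To compare the genotypes, myb30 was set against Col at each leaf and time. MYB30 itself was called in none of these comparisons, with differences of -0.90 in systemic leaves at 8 min to 0.22 in systemic leaves at 0 min. The latter includes both libraries that went against their genotype labels, and all other differences were negative, at -0.90 to -0.41. The unadjusted p of limma was under 0.05 except in local leaves at 30 min and systemic leaves at 0 min. With no allele named, these comparisons cannot isolate the part of MYB30. The 2 genotypes differed in 3 of 64 member comparisons, all in systemic leaves at 30 min, where 0.726% of all genes were called. The myb30 leaves held less TPS11, at 4424, 7133 and 5932 against 9133, 8837 and 10505 in Col. They held less TPS8, at 6757, 11151 and 8088 against 13454, 12619.5 and 13056. Every myb30 library lay below every Col library in both genes. The differences were -0.73 ± 0.16 (adjusted p = 0.0197) for TPS11 and -0.62 ± 0.15 (adjusted p = 0.0339) for TPS8. TPS10 was lower too, at -0.36 ± 0.09 (adjusted p = 0.0312), and TPS9, at -0.62 ± 0.16 (adjusted p = 0.0528), did not pass; neither overlapped. The TPS8 call was lost in edgeR, at -0.58 (adjusted p = 0.0521), with libraries scaled to the same total, at -0.58 (adjusted p = 0.0669), and with quantile normalization, at -0.59 (adjusted p = 0.0683), and the TPS10 call with the same total, at -0.32 (adjusted p = 0.0949). With the compared groups fitted alone none of the 3 was called, with adjusted p of 0.324 for TPS11, 0.374 for TPS8 and 0.360 for TPS10 in limma. At the other 7 combinations of leaf and time limma called no member. There 0.0102%, 0.373%, 0.0153% and 1.42% of all genes were called in local leaves at 0, 2, 8 and 30 min, and 0%, 0.0767% and 0.0102% in systemic leaves at 0, 2 and 8 min. Of 56 member values 7 had an unadjusted p under 0.05, and edgeR and DESeq2 called 0. Their differences ran from -0.43 to 0.44, the lowest being TPS8 in local leaves at 30 min, at -0.43 ± 0.15 (adjusted p = 0.184).

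Whether the change over 30 min itself differed between genotypes was tested as an interaction. TPS11 rose less in myb30 than in Col, with a difference of changes of -1.04 ± 0.23 (adjusted p = 0.0429), the only call among 48 such tests of members, where 0.143% of all genes were called. TPS8, at -0.69 ± 0.21 (adjusted p = 0.189), TPS9, at -0.50 ± 0.22 (adjusted p = 0.413), and TPS10, at -0.44 ± 0.12 (adjusted p = 0.153), did not pass. The TPS11 interaction was lost in 10 of 12 single omissions from the compared groups, with values of -1.09 to -0.86 and adjusted p of 0.0679 to 0.236. The exceptions were myb30 systemic 0 min replicate 3 and myb30 systemic 30 min replicate 2. Leaving out any library of Col local 0 min or Col systemic 2 min, groups outside the comparison, also left no genotype-by-time call. The same held for Col local 2 min replicates 2 and 3, Col local 8 min replicates 1 and 2 and Col local 30 min replicate 1. It also held for myb30 local 8 min replicates 1 and 2 and myb30 systemic 2 min replicates 2 and 3. The interaction was -1.13 (adjusted p = 0.0696) without both libraries that went against their genotype labels. It was -1.08 without all 4 doubted ones, which left 1 Col systemic library at 0 min. It was also lost with the same total, at -1.02 (adjusted p = 0.0763), with quantile normalization, at -1.02 (adjusted p = 0.0709), with no filter, at -1.04 (adjusted p = 0.0594), and with the compared groups alone, at -1.04 (adjusted p = 0.257). Without myb30 systemic 30 min replicate 2, 3 of the 48 were called. The direct difference was likewise lost without Col systemic 30 min replicate 2 or 3 or myb30 systemic 30 min replicate 1 or 3 for TPS11 (-0.78 to -0.54). For TPS8 (-0.64 to -0.46) and TPS10 (-0.39 to -0.29) it was lost without any 1 of the Col systemic 30 min libraries or of myb30 systemic 30 min replicates 1 and 3, while without myb30 local 30 min replicate 2 the calls of myb30 against Col numbered 5 in place of 3. In local leaves at 30 min the interaction values were -0.50 ± 0.21 for TPS8, -0.25 ± 0.22 for TPS9, -0.31 ± 0.12 for TPS10 and -0.14 ± 0.23 for TPS11, where 0.276% of all genes were called, with adjusted p of at least 0.414.

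**Figure D4:**
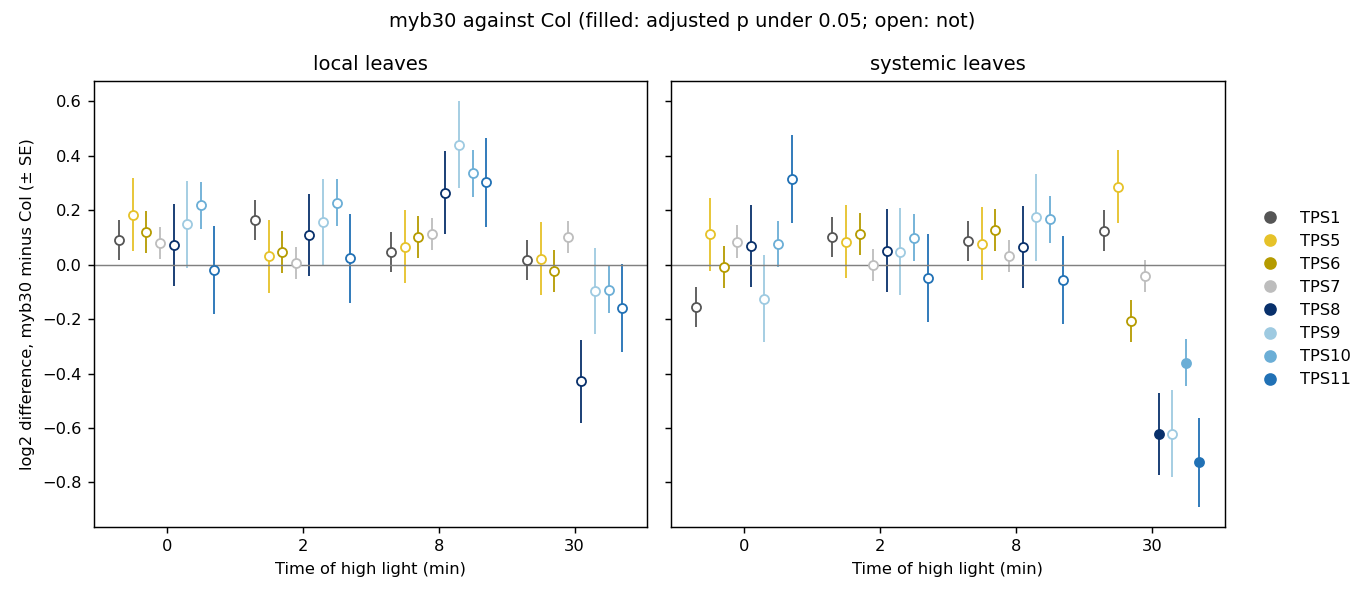
Difference of myb30 minus Col on the log2 scale with its standard error for each member (colours), against time of high light, in local leaves (left) and systemic leaves (right); filled symbols passed the test. TPS8 (-0.62), TPS10 (-0.36) and TPS11 (-0.73) in systemic leaves at 30 min are the only filled symbols.

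Other genes of the pathway were followed as lists, whose counts are read against the share of all genes called at 30 min, 44.1% in myb30 local, 53.7% in Col local, 11.6% in myb30 systemic and 34.7% in Col systemic leaves. Of the 10 trehalose-phosphate phosphatases, which turn trehalose-6-phosphate into trehalose, 8 were tested: 2 rose and 4 fell in myb30 local leaves at 30 min and 2 rose and 3 fell in Col local leaves, with a median change of -0.50 in myb30 and -0.45 in Col, beside medians of all genes tested within 0.0043 of 0. In systemic leaves 1 rose and 1 fell in myb30 and 1 rose and 3 fell in Col (medians -0.22 and -0.51). The count in Col local leaves is close to the share of all genes. TPPG rose in all 4 cases, by 1.61 ± 0.23 in myb30 local, 1.53 ± 0.23 in Col local, 1.34 ± 0.23 in myb30 systemic and 1.08 ± 0.23 in Col systemic leaves. TPPH fell in local leaves, with changes of -1.56 ± 0.16 in myb30 and -1.48 ± 0.16 in Col, and TPPJ rose there by 0.63 ± 0.12 and 1.17 ± 0.12. TPPD fell in local leaves, with changes of -1.81 ± 0.26 in myb30 and -1.64 ± 0.26 in Col. The trehalase TRE1, which splits trehalose, fell in local leaves, with changes of -0.66 ± 0.17 (adjusted p = 0.00147) in myb30 and -0.47 ± 0.17 (adjusted p = 0.0176) in Col.

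Marker genes of carbon starvation fell in local leaves and, in Col, rose in systemic leaves. Of 7, all fell in myb30 local leaves and 6 in Col local leaves at 30 min (medians -1.41 and -1.33), while 1 rose in myb30 systemic leaves and 6 rose in Col systemic leaves (medians 0.29 and 1.07). ATL8, a RING-finger gene, changed by -1.58 ± 0.20 in myb30 local and -1.62 ± 0.20 in Col local leaves, and DIN6, an asparagine synthetase used as a reporter of SnRK1 activity, rose by 1.88 ± 0.27 (adjusted p = 1.75e-06) in Col systemic leaves. At 30 min in systemic leaves limma called none of the 7 between myb30 and Col, with a median difference of -0.69; 3 had an unadjusted p under 0.05, and edgeR and DESeq2 called 0. Of the 7 SnRK1 subunits, 2 fell and none rose in myb30 local leaves and 3 rose and 3 fell in Col local leaves (5 and 6 fell and none rose with libraries scaled to the same total), while in systemic leaves 1 fell in myb30 and 2 rose and 2 fell in Col. The count of 2 of 7 in myb30 local leaves lies below the 44.1% of all genes, and in Col local leaves 53.7% of all genes were called. The beta subunit KINB1 fell in local leaves, with changes of -1.14 ± 0.17 in myb30 and -0.88 ± 0.17 in Col, and rose in Col systemic leaves by 1.14 ± 0.17. The subunit KING1 was the only gene of all these lists called between myb30 and Col in systemic leaves at 30 min, with a difference of -0.40 ± 0.10 (adjusted p = 0.0415).

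Of 6 bZIP factors tied to SnRK1, 3 rose and 3 fell in local leaves of either genotype, where 44.1% of all genes were called in myb30 and 53.7% in Col. BZIP63, itself a SnRK1 substrate, fell, with changes of -2.21 ± 0.16 in myb30 local and -2.02 ± 0.16 in Col local leaves, as did BZIP1, with -1.73 ± 0.19 in myb30 and -1.91 ± 0.19 in Col. In myb30 systemic leaves only BZIP2 was called, lower, at -0.83 ± 0.09, while in Col systemic leaves 2 rose, BZIP63 by 0.57 ± 0.16 and BZIP1 by 1.26 ± 0.19, and 2 fell (11.6% and 34.7% of all genes). Of 4 sugar-induced genes, 1 rose in myb30 local and 3 in Col local leaves, led by the glucose-6-phosphate translocator GPT2 with 4.44 ± 0.84 (adjusted p = 4.50e-05) in myb30 and 4.68 ± 0.84 (adjusted p = 1.58e-05) in Col. With the same total the Col local count was 1. The count of 1 of 4 in myb30 local leaves lies below the share of all genes. None of the 4 was called in myb30 systemic leaves (0 at an unadjusted p under 0.05, 0 by edgeR and DESeq2) and 1, SUS4, fell in Col, with a change of -1.89 ± 0.47. Of 10 enzymes of sucrose and UDP-glucose metabolism, 9 were tested: 4 rose and 3 fell in myb30 local and 5 rose and 3 fell in Col local leaves, whereas 4 fell in myb30 systemic and 5 in Col systemic leaves and none rose, beside the same shares of all genes. The local medians of 0.07 in myb30 and 0.12 in Col turned to -0.09 and -0.21 with the same total and to -0.05 and -0.07 with quantile normalization. The sucrose-phosphate synthase SPSA2 rose in local leaves by 1.17 ± 0.15 in myb30 and 1.93 ± 0.15 in Col. UGP2, which makes the UDP-glucose that TPS1 uses, rose there by 0.44 ± 0.09 and 0.82 ± 0.09 and fell in systemic leaves, with changes of -0.31 ± 0.09 in myb30 and -0.59 ± 0.09 in Col.

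**Figure D5:**
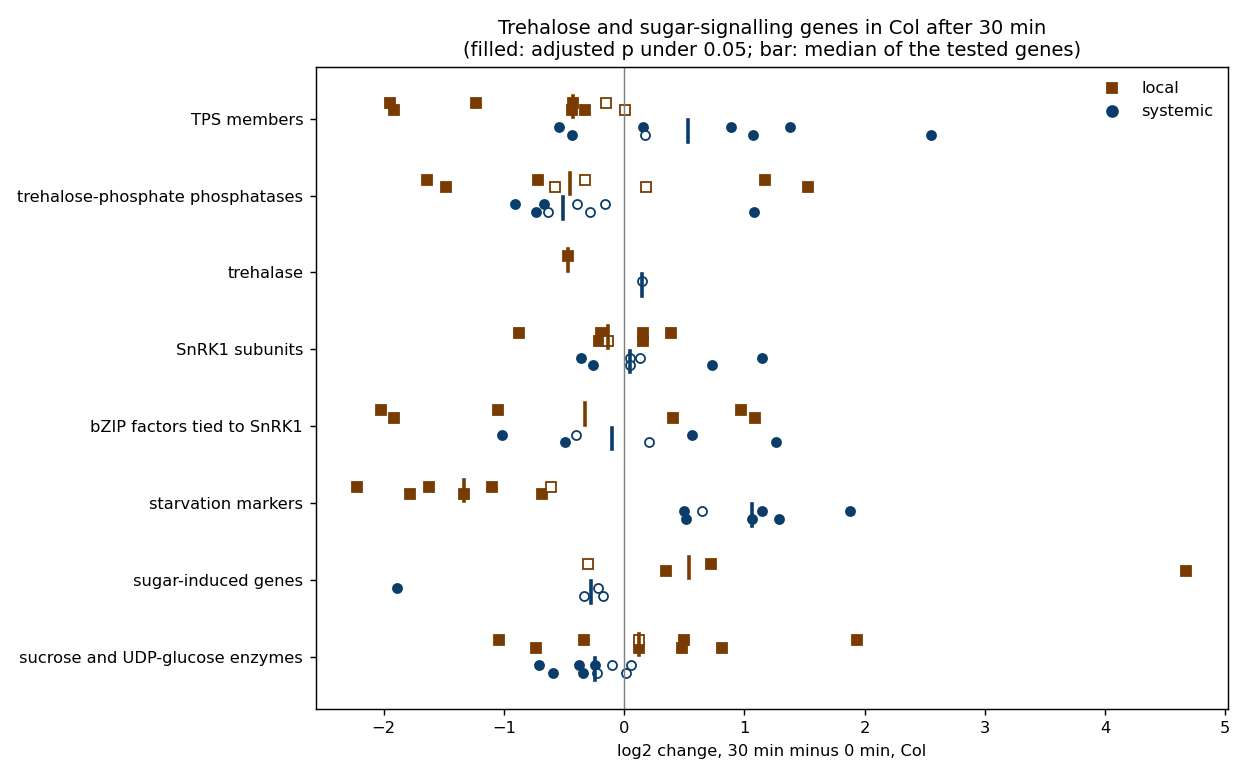
Change of each tested gene at 30 min in Col local (squares) and Col systemic leaves (circles) on the log2 scale, 1 row per list; filled symbols passed the test and bars mark the median of the tested genes. Starvation markers lie left of 0 in local leaves (median -1.33) and right of 0 in systemic leaves (median 1.07), and the sugar-induced GPT2 lies farthest right in local leaves at 4.68.

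The genes whose course over the 16 group means was most like that of a member were named by Pearson's r on log2 values, a description over means that share libraries. For TPS8 these were AT5G22920 and AT1G27290 (r = 0.993 each) and PIRL4 (0.988). For TPS11 they were AT3G15450 (0.986), AT5G44260 (0.981) and AT1G49032 (0.978). AT5G22920 was also among the closest to TPS9 (0.97), after AT5G14120 (0.973) and AT1G02610 (0.972), and TPS10 was closest to AT5G63190 (0.971), AT4G06534 (0.968) and AT4G27450 (0.965). AT3G15450 averaged 108 ± 28.9 in myb30 local and 137 ± 8.97 in Col local leaves at 30 min, and 2395 ± 944 and 4909.7 ± 677 in myb30 and Col systemic leaves (SD, n = 3 each), so it had the same order of groups at 30 min as TPS11. TPS1 was closest to REV (0.985), NHL12 (0.983) and AT1G26370 (0.978), TPS7 to AT3G16800 (0.961), and TPS5 to AT5G36160 (0.947). TPS6 had the least close partner, AT3G20170 (0.898).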

How the data were processed

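Leaf RNA of 48 libraries in 16 groups of 3 was measured. The deposited table gives normalised read counts, a signal per gene: the authors divided whole read counts by 1 size factor per library (0.776 to 1.17), since 100% of 1084756 values above 0 came out whole (within 1e-06) when multiplied back. These factors equal median-of-ratios factors. The submitters' processing notes name the build TAIR10, STAR (2.4.0.1), DESeq2 (1.20.0), FastQC (0.11.7) and cutadapt (1.18), with no role or order; the tool that counted reads is not given in the sources used here, nor its strand setting. No reads were realigned.

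From these values, the trended empirical Bayes test of limma 3.58.1 in R 4.3.3 was run on log2(value + 1) for the 19556 genes with a mean of at least 10, as 1 fit of 16 group means, with Benjamini-Hochberg adjustment within each of 40 comparisons and a threshold of 0.05. The fit was tested on simulated data. Libraries held 70514715 to 89402096 reads in genes. edgeR 4.0.16 (quasi-likelihood) and DESeq2 1.42.0 were run on the recovered whole counts as alternatives, beside other scalings, pseudocounts of 0.5 and 8, no filter, fits of the compared groups alone, a replicate block and omission of libraries.

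Same-numbered libraries share a repeat number in the labels, and nothing there says what it marks. Their deviations correlated above 0.1 for all 3 numbers in 10 of 28 comparisons, where the blocked value is given if it changed a call. All 8 members are named, other genes come from lists by function, and the 3 genes most like each member by Pearson's r over 16 group means. Members and lists were chosen with earlier results of these data known. Gene models, products and start regions are from RefSeq on TAIR10.1, in which 32548 of 32833 identifiers were found as locus tags. The joined exons of all annotated transcripts of a gene gave the length for the levels per kb.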

Additional observations from a re-analysis of the deposited data

Results flagged for a closer look

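The change at 30 min differed between local and systemic leaves for 5 members in myb30 and 6 in Col, by limma's test of the difference between the changes (local minus systemic, log2 scale). Of all genes tested, 22.7% were called in myb30 and 36.8% in Col. With the compared groups fitted alone in limma, TPS7 in myb30 (adjusted p = 0.0518) and TPS6 in Col (adjusted p = 0.0510) were not called. The TPS6 call was also lost without Col local 0 min replicate 2 or Col systemic 30 min replicate 3. In myb30 limma gave -0.33 ± 0.08 for TPS7 (adjusted p = 0.00260), -3.14 ± 0.21 for TPS8 (adjusted p = 2.77e-14), -2.06 ± 0.22 for TPS9 (adjusted p = 3.74e-09), -1.20 ± 0.12 for TPS10 (adjusted p = 7.55e-10) and -3.57 ± 0.23 for TPS11 (adjusted p = 5.81e-15). In Col limma gave -0.33 ± 0.11 for TPS6 (adjusted p = 0.0171), -0.48 ± 0.08 for TPS7 (adjusted p = 1.40e-05), -3.33 ± 0.21 for TPS8 (adjusted p = 2.64e-15), -2.31 ± 0.22 for TPS9 (adjusted p = 1.46e-10), -1.32 ± 0.12 for TPS10 (adjusted p = 3.62e-11) and -4.47 ± 0.23 for TPS11 (adjusted p = 4.95e-18). The change of TPS11 in systemic leaves at 30 min differed between myb30 and Col by -1.04 ± 0.23 (adjusted p = 0.0429), the only such difference between genotypes among the members. Of all genes tested, 0.143% were called there. This TPS11 call was lost in limma with libraries scaled to the same total (adjusted p = 0.0763), with quantile normalization (adjusted p = 0.0709), with no filter (adjusted p = 0.0594) and with the compared groups alone (adjusted p = 0.257). It was also lost in most single omissions from the compared groups.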

How the results depend on the processing

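No called value of a member changed sign, and none moved by over 1.5 times in fold, under the alternatives run. The counts of called members moved as follows. Scaled to the same total, Col local leaves had 14 calls over time in place of 9. With all 4 doubted 0 min libraries left out, fewer members were called over time in Col systemic leaves, where 1 library was left at 0 min. With the compared groups fitted alone, myb30 systemic leaves had 1 in place of 5 and myb30 against Col had 0 in place of 3. The genotype-by-time count was 0 in place of 1 under the same total, quantile normalization, no filter, the compared groups alone, and with both libraries in doubt, the 3 outlying 0 min libraries or all 4 left out.

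Leaving out 1 repeat number of every group gave 8 to 11 calls over time in myb30 local, 6 to 9 in Col local, 1 to 5 in myb30 systemic and 6 to 10 in Col systemic leaves, 0 to 3 for myb30 against Col, 0 for genotype by time, 11 to 15 for local against systemic and 10 to 11 for leaf by time. Leaving out single libraries gave 8 to 13, 7 to 10, 4 to 6 and 10 to 13 over time in that order of groups, 0 to 5 for myb30 against Col, 0 to 3 for genotype by time, 12 to 14 for local against systemic and 10 to 13 for leaf by time. Of the 67 member calls, 19 were lost with the compared groups alone, 9 with all 4 libraries left out, 5 with the same total, 4 with quantile normalization and 1 each with edgeR and no filter, and none with DESeq2, either pseudocount or the block.

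With the replicate block the counts were 14 in myb30 local, 13 in Col local, 6 in myb30 systemic and 15 in Col systemic leaves, 4 for myb30 against Col, 1 for genotype by time, 15 for local against systemic and 13 for leaf by time. The block changed no call in the paired comparisons other than TPS6 in Col systemic leaves at 30 min. The 2 libraries against their genotype labels, pools without a stated design for the repeat number, 3 libraries per group and the unknown strand setting limit these results; the cause of each lost call was not tested.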

Other observations

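TPS2, TPS3 and TPS4, the other class I synthases, were below the filter on low values and entered no comparison. TPS4 had 3.24, 4.69 and 5.33 normalised counts in myb30 local leaves at 30 min and 2.37, 7.17 and 7.74 in Col local leaves at 30 min. Every other group had at least 1 library with TPS4 at 0, and the highest value among them was 4.19, in myb30 local leaves at 8 min. TPS3 reached at most 2.23 in any library.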
